A study of Mus musculus with 10 samples.

Results

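The mouse genome carries 94 protein-coding genes whose GENCODE name begins with Kcn, out of 21951 protein-coding genes in release M21 of GRCm38, and they encode the pore-forming and auxiliary subunits of potassium channels. Their open chromatin was profiled with ATAC-seq, an assay that tags accessible DNA with a transposase, in cultured neural stem cells of the subependymal zone (SEZ). The mice were 10 weeks old. A region was assigned to a Kcn gene when its summit lay within 3 kb of the gene start or inside the gene body. This rule gave 518 Kcn regions out of the 99231 regions that held a peak in at least 2 of the 10 libraries, and 85 of the 94 genes had at least 1 region. The gene list was defined by name alone, so no measured value chose its members.

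The libraries came from wild-type (WT) cells and from p27KO cells, which lack Cdkn1b, the gene for the cell cycle inhibitor p27 (a germline null allele). Proliferating cultures (PRO) were neurospheres kept for 3 days, per the labels, in medium holding EGF at 20 ng/ml and FGF at 10 ng/ml. Cultures at the onset of differentiation (DIFF) spent 2 days on Matrigel with FGF and then 24 h without mitogens in 2% serum. WT had 3 libraries at PRO and 3 at DIFF, and p27KO had 2 at each, all made from 50000 cells and called biological replicates by the submitters. Whether they came from separate mice is not stated, so p-values describe the spread between these libraries.

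Potassium channels let potassium ions leave or enter the cell along their electrochemical gradient and set the resting potential, the shape of action potentials and firing patterns. Voltage-gated (Kcna to Kcnd, Kcnh, Kcnq), calcium-activated (Kcnma, Kcnn), sodium-activated (Kcnt), inwardly rectifying (Kcnj) and leak channels (Kcnk) differ in what opens them, while Kcnab, Kcne, Kcnip and Kcnmb proteins are auxiliary subunits. Glia and neural progenitors rely mainly on inward rectifier and leak channels, and voltage-gated and calcium-activated channels are added as neurons mature.

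The 10 peak lists held 57534 to 91801 peaks, and the third WT DIFF list, with 88738 peaks, stood apart from the others of its group (57534 and 61783). A longer list can come from deeper sequencing alone, so a region without a peak is one in which none was called at that depth. The Cdkn1b gene body was open in 6 of 6 WT libraries and in 0 of 4 p27KO libraries, as the titles and genotypes say and the free-text descriptions of the p27KO libraries, which name WT cells, do not. The promoters of the Y-linked genes Ddx3y, Eif2s3y, Uty and Kdm5d were open in every WT library (6) and in 0 of 4 p27KO libraries, so genotype and sex of the donor mice cannot be told apart here. Promoter peaks were present for 9 to 10 of 10 neural stem and progenitor marker genes in every library, for 5 to 7 of 7 neuronal, 4 to 5 of 6 astrocytic and 3 to 4 of 6 oligodendrocytic ones. They were present for 2 to 3 of 6 microglial markers (3 had none in any library) and 1 to 4 of 6 endothelial and mural markers (2 had none in any library).

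Most Kcn genes had an open start region in every library. A peak lay within 3 kb of the annotated start of 62 genes in all 10 libraries, of 13 genes in 1 to 9 libraries and of 19 genes in none. When the start of any annotated transcript counted, 71 genes had such a peak in all 10 libraries and 13 in none. Kcnma1, Kcnip1, Kcnk2, Kcnj16 and Kcnn4 moved from none to all 10, because the peak lay at an internal start. The 9 genes without any region were Kcne2, Kcne3, Kcnj1, Kcnk7, Kcnk16, Kcnk18, Kcnmb3, Kcnrg and Kcnv2.

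Between 277 and 404 of the 518 Kcn regions had a peak in a given library. The share was 71.6%, 70.5% and 67.0% in WT PRO, 56.6%, 53.5% and 78.0% in WT DIFF, 77.2% and 72.6% in p27KO PRO, and 61.6% and 66.6% in p27KO DIFF. It followed the share of all regions in each library, and the difference, Kcn minus all, was -3.36 to -2.15 percentage points in the 5 PRO libraries and -1.31 to -0.143 points in the 5 DIFF libraries. These shares are descriptions and were not tested. At the level of single regions, 199 Kcn regions (38.4%) had a peak in all 10 libraries, against 38.2% of all regions.

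**Figure D1:**
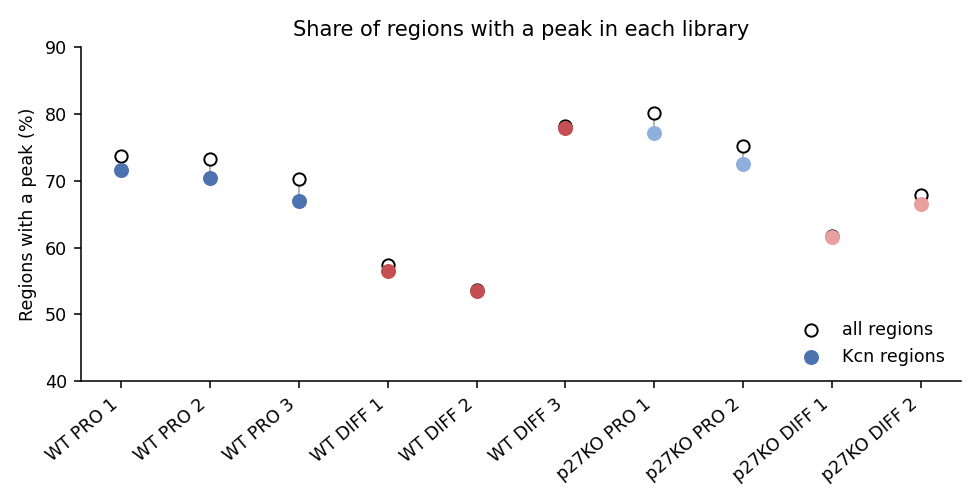
Share of regions with a peak (%, axis from 40 to 90) in each of the 10 libraries, for the 518 Kcn regions (filled) and for all 99231 regions (open circles). The Kcn share moves with the share of all regions, and both are highest in the third WT DIFF library among the WT libraries.

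To compare conditions, regions were ordered in each library by their best fold enrichment, those without a peak sharing the lowest place, and the ranks were converted to normal scores. The test took the 70627 regions found in 5 or more libraries, among them 355 Kcn regions from 82 genes. The p-values of limma's moderated test were adjusted over all of them (Benjamini-Hochberg). Values per library are given below as percentiles of fold enrichment within the list (100 is the strongest peak), in replicate order, and changes are DIFF minus PRO in normal score units with the standard error. Percentiles cover the peaks of 1 list, whereas scores also rank the regions without a peak, so their orders can differ. In bulk cultures, fewer cells with an open region and a region less open in each cell cannot be told apart.

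At the onset of differentiation, Kcn regions moved in both directions. Among the 355 tested Kcn regions, falls outnumbered rises in each genotype. In WT this order was not kept among the Kcn regions with peaks in both conditions, with 27 falls and 29 rises. In WT cells, 39 of the 355 tested regions (11.0%) fell and 32 (9.01%) rose, where 10.1% of all tested regions were called lower and 9.15% higher. In p27KO cells, 26 (7.32%) fell and 16 (4.51%) rose, against 6.48% and 5.83% of all regions. The median change of the tested Kcn regions was 0.01 in WT and 0.04 in p27KO, and that of all regions 0.03 and 0.04. The WT shares thus lay near those of the whole table, and in p27KO falls outnumbered rises by more among Kcn regions than among all regions, a difference that was not tested.

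The filter on 5 libraries let in 19 Kcn regions through 1 condition only, with peaks in all 5 PRO (16) or all 5 DIFF libraries (3) and in none of the other condition, and such regions were bound to differ. Among the 336 Kcn regions with peaks in both conditions, 27 fell (8.04%) and 29 rose (8.63%) in WT, against 8.12% and 8.22% of all such regions. In p27KO 17 fell (5.06%) and 13 rose (3.87%), against 5.11% and 4.73%. The excess of falls over rises in WT thus came from the regions that were bound to differ. Without each library in turn, 28 of the 71 WT calls and 11 of the 42 p27KO calls were kept in all 10 fits. Counting also the regions that left the test in some fits, because fewer than 5 libraries then held a peak, 38 and 16 were not lost in any fit that tested them. WT falls were fewer than WT rises without WT PRO 1 (18 of 43 calls) or WT PRO 3 (18 of 39). They equalled the rises without p27KO PRO 1 (27 of 54) and outnumbered them in the other fits.

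Most changes lay in gene bodies. Of the 85 tested Kcn regions within 3 kb of a start, 2 fell and 2 rose in WT (4.71%, against 5.79% of all such regions of protein-coding genes), and of the 270 regions deeper in a gene body, 37 fell and 30 rose (24.8%, against 23.2%), of which 36 falls and 29 rises were intronic. In p27KO, 1 fell and 2 rose near a start (3.53%, against 2.80% of all such regions of protein-coding genes). Deeper in the gene, 25 fell and 14 rose (14.4%, against 15.4%). With the starts of all transcripts counted, 5 of 115 start regions fell and 3 rose in WT, beside 34 falls and 29 rises among the 240 others. The matching shares over all genes are not given here.

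Of the 31 genes with a WT call, 14 had regions that rose and regions that fell (45.2%), 8 had only falls and 9 only rises. Among all protein-coding genes with a WT call the share with both directions was 23.4%, a comparison not matched for the number of regions per gene. Calls that were bound to differ are counted here. The only rise in each of Kcnj3, Kcnk2 and Kcnq3 had peaks in the 5 DIFF libraries alone. The only fall in Kcnj3 had peaks in the 5 PRO libraries alone. For these genes the mix of directions rested on such calls. The set that rose and fell within the same gene comprised Kcnab1, Kcnd2, Kcnd3, Kcnh7, Kcnh8, Kcnip1, Kcnip4, Kcnj3, Kcnj5, Kcnk2, Kcnk10, Kcnn3, Kcnq3 and Kcnq5. In 8 of these 14 (Kcnab1, Kcnh7, Kcnip4, Kcnj3, Kcnj5, Kcnk10, Kcnn3 and Kcnq3), every call in 1 of the directions was lost in at least 1 fit without 1 library. Regions called in both genotypes numbered 36, all with the same direction, which is 50.7% of the WT calls and 85.7% of the p27KO calls, while over all regions the shares were 51.2% and 79.9%.

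The sequences of some of the Kcn regions with the largest rises and falls, and of the region upstream of Kcnj5, are shown because the results below turn on them. Each is the 300-base window centred on the region's summit in GRCm38.p6, 5′ to 3′. Capitals mark matches on either strand to the motifs searched, which were AP-1 (TGANTCA), E-box (CAGCTG), SOX (ACAATGG), NFI (TTGGCA), TEAD (GGAATG) and the left (TTCAGCACC) and right (GGACAGCG) parts of the REST element, and adjoining matches form 1 run of capitals. The first 3 rose and the next 3 fell in WT.
Kcnq5, +527 kb, chr1:21434943-21435242, plus strand: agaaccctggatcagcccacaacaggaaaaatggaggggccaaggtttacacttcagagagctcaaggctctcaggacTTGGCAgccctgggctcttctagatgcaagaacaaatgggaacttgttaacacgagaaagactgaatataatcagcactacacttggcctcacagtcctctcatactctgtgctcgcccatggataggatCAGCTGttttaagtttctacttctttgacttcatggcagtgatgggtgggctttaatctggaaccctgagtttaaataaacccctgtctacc
Kcnj3, +33.3 kb, chr2:55469168-55469467, plus strand: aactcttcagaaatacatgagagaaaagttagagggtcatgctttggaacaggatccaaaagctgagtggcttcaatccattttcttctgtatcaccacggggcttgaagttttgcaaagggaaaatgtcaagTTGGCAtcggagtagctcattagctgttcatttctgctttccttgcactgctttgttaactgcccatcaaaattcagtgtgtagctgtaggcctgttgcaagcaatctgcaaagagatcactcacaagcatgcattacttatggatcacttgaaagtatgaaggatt
Kcnj5, -1.39 kb, chr9:32345589-32345888, plus strand: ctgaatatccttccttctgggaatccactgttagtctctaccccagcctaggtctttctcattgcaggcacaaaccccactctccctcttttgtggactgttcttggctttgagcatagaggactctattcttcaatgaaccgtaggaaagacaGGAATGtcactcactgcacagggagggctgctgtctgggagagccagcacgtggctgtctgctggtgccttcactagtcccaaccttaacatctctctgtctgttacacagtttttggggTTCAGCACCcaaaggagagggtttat
Kcnq5, +345 kb, chr1:21616734-21617033, plus strand: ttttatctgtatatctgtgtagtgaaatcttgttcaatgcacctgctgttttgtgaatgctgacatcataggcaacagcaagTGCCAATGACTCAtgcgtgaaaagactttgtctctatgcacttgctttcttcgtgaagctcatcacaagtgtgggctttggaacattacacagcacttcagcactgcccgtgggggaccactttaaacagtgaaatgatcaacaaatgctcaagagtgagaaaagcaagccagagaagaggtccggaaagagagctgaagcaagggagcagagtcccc
Kcnk2, +187 kb, chr1:189215161-189215460, plus strand: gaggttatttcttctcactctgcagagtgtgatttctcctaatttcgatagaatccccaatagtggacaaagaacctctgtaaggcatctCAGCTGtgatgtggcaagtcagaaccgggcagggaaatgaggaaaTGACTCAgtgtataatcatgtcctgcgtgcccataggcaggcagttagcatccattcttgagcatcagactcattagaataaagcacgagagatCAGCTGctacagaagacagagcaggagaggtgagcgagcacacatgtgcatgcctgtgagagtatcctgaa
Kcnip1, +126 kb, chr11:33866851-33867150, plus strand: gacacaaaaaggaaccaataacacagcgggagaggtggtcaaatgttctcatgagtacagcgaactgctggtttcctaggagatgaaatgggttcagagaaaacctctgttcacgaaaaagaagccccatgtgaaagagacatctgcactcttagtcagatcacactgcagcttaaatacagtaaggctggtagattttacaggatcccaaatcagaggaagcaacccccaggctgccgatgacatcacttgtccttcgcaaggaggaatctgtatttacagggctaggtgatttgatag
The Kcnq5 region that fell held an NFI match directly followed by an AP-1 match, and the Kcnk2 region held 1 AP-1 and 2 E-box matches, while the Kcnip1 window held none of the 7 motifs. The window of the Kcnn3 region 39 kb from the start, which rose and is not shown, also held none of them.

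Among the regions that rose, the largest changes were at channels of the M-current, the G protein-gated inward rectifiers and the small-conductance calcium-activated channels. Kcnq5 encodes an M-current channel, and its intronic region 527 kb from the start (chr1:21434757-21435334) had percentiles of 71.9, 73.2 and 74.9 in WT DIFF and no peak in any WT PRO library. In p27KO the values were 40.7 and 10.9 at PRO and 68.2 and 65.5 at DIFF. Every DIFF library lay above every PRO library in both genotypes, and PRO peaks were called only in p27KO. The region rose by 2.30 ± 0.19 in WT (adjusted p = 7.20e-05) and by 1.32 ± 0.23 in p27KO (adjusted p = 0.00419), the latter call being lost without p27KO PRO 2 (adjusted p up to 0.0515).

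Kcnj3 encodes a pore subunit of the G protein-gated inward rectifiers that slow neuronal firing. The region in its intron, 33.3 kb from the start (chr2:55468929-55469428), had percentiles of 84.9, 64.2 and 65.0 in WT DIFF and 75.5 and 49.5 in p27KO DIFF, and no PRO library had a peak. It was open in all 5 DIFF libraries alone and passed the filter through them. The change was 2.26 ± 0.27 in WT (adjusted p = 0.00027) and 2.14 ± 0.33 in p27KO (adjusted p = 0.00197).

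Kcnj5, the partner subunit of Kcnj3 in these channels, rose at the region at -1.39 kb, upstream of its start (chr9:32345616-32346127). Its percentiles were no peak, 4.86 and no peak in WT PRO and 68.1, 65.0 and 70.4 in WT DIFF, 32.9 and no peak in p27KO PRO and 55.9 and 61.6 in p27KO DIFF. Of the 2 regions near a start that rose in WT, the other lay upstream of Kcnn1 (adjusted p = 0.0497, a call lost without each WT library in turn). At the Kcnj5 region, DIFF and PRO libraries did not overlap in either genotype. The change was 2.00 ± 0.23 in WT (adjusted p = 0.000266) and 1.50 ± 0.29 in p27KO (adjusted p = 0.00671), the latter lost without p27KO PRO 2 (adjusted p up to 0.0700). An intronic region of the same gene, 12.9 kb from the start, fell in WT (change -0.95 ± 0.25, adjusted p = 0.0196), a call lost without WT PRO 2, WT PRO 3, WT DIFF 1 or WT DIFF 2 (adjusted p up to 0.0933). This gene therefore held a rise upstream of its start and a fall within its intron.

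The Kcnn genes encode the small- and intermediate-conductance calcium-activated channels that produce the afterhyperpolarization. The Kcnn3 region 39 kb from the start (chr3:89558899-89559806) had percentiles of no peak, 17.4 and no peak in WT PRO, 66.0, 67.4 and 80.6 in WT DIFF, 5.80 and no peak in p27KO PRO and 62.7 and 67.2 in p27KO DIFF. All 5 DIFF libraries were above all 5 PRO libraries, with changes of 2.03 ± 0.21 in WT (adjusted p = 0.000143) and 1.98 ± 0.26 in p27KO (adjusted p = 0.000961). The Kcnn2 region 338 kb from the start had no peak in any WT PRO library, 63.7, 51.7 and 73.9 in WT DIFF, 11.4 and no peak in p27KO PRO and 62.7 and 46.4 in p27KO DIFF. It too was higher in every DIFF library and rose by 2.05 ± 0.19 and 1.66 ± 0.23 in WT and p27KO (adjusted p = 9.39e-05 and 0.00136). Both regions kept their calls in both genotypes without any 1 library.

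The remaining rises among the 12 largest in WT were smaller. Kcnd2 and Kcnd3 encode A-type channels, which inactivate quickly and delay firing. The Kcnd2 region 295 kb from the start had percentiles of no peak, 17.4 and no peak in WT PRO against 78.4, 54.7 and 70.4 in WT DIFF, and 23.1 and 39.8 against 50.3 and 43.1 in p27KO. It rose in WT by 1.93 ± 0.26 (adjusted p = 0.000551), and in p27KO the change of 0.72 ± 0.32 did not pass (adjusted p = 0.178). The Kcnd3 region at 24.3 kb rose by 1.37 ± 0.21 in WT and 1.29 ± 0.25 in p27KO.

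The leak channel genes Kcnk5 and Kcnk2 each had an intronic rise. The Kcnk5 region at 16.2 kb changed by 1.86 ± 0.25 in WT and 1.18 ± 0.31 in p27KO, and the Kcnk2 region at 129 kb, in a mechanically gated leak channel gene, by 1.46 ± 0.21 and 1.65 ± 0.26. The latter had percentiles of 46.1, 16.2 and 49.8 in WT DIFF and 24.4 and 57.2 in p27KO DIFF, with no peak in any PRO library. Kcnq3, an M-current partner of Kcnq5, rose at 206 kb by 1.43 ± 0.22 in WT and 1.88 ± 0.27 in p27KO, again with peaks in DIFF libraries alone. Kcnc1, a channel of fast-spiking neurons, rose at 28.7 kb by 1.32 ± 0.26 and 1.21 ± 0.32.

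Kcnj16 encodes an inward rectifier subunit that joins Kcnj10 in astroglia. Its intronic region at 18.2 kb had percentiles of 22.4, 8.63 and no peak in WT PRO, 61.4, 51.7 and 56.5 in WT DIFF, 40.7 and no peak in p27KO PRO and 60.6 and 63.6 in p27KO DIFF. DIFF libraries were higher throughout, with changes of 1.40 ± 0.29 in WT (adjusted p = 0.00629) and 1.47 ± 0.35 in p27KO (adjusted p = 0.0200). The p27KO calls of this region and of Kcnk5, Kcnd3 and Kcnc1 were fragile. That of Kcnj16 was lost without p27KO PRO 2, p27KO DIFF 1 or p27KO DIFF 2 (adjusted p up to 0.187), that of Kcnk5 without p27KO PRO 1, p27KO DIFF 1 or p27KO DIFF 2 (adjusted p up to 0.216), that of Kcnd3 without p27KO PRO 1, p27KO PRO 2 or p27KO DIFF 1 (adjusted p up to 0.0875) and that of Kcnc1 without WT PRO 3, p27KO PRO 2, p27KO DIFF 1 or p27KO DIFF 2 (adjusted p up to 0.284). The WT calls of 9 of these 12 regions were kept in all 10 fits without 1 library. Those of Kcnj3, Kcnk2 and Kcnq3, with peaks in the 5 DIFF libraries alone, left the test without any of these, so the 5 remaining fits show nothing about their stability.

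**Figure D2:**
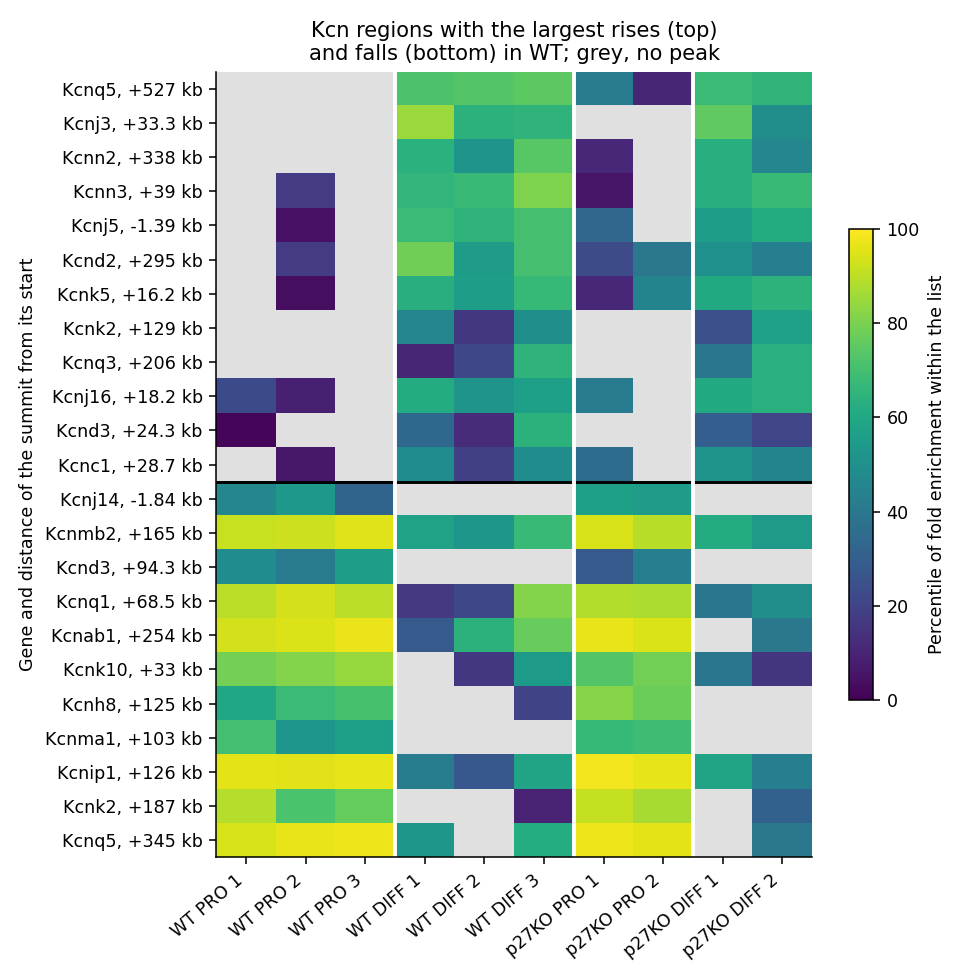
Percentile of fold enrichment within the list (colour, 0 to 100) in the 10 libraries for the 12 largest rises (above the black line) and 11 of the 12 largest falls (below it) in WT, at most 1 region per gene and direction, with grey where no peak was called. In both genotypes the DIFF columns of the rises lie above the PRO columns and those of the falls below them, and the third WT DIFF library comes nearest to the PRO columns at Kcnq1 (81.4).

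Among the regions that fell, several were among the strongest peaks of the PRO lists. The Kcnq5 region 345 kb from the start (chr1:21616379-21617122) had percentiles of 94.0, 96.5 and 97.4 in WT PRO, 53.0, no peak and 61.9 in WT DIFF, 97.6 and 96.0 in p27KO PRO and no peak and 39.5 in p27KO DIFF. It was lower in every DIFF library and fell by 1.98 on the normal score scale in WT (SE 0.34, adjusted p = 0.00232) and by 2.54 in p27KO (SE 0.42, adjusted p = 0.00309). The rise at 527 kb and this fall both lay in introns of Kcnq5.

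Kcnk2 showed the same mixture. The region at 187 kb (chr1:189214694-189215679), which lies within 3 kb of an internal annotated start, had percentiles of 89.0, 71.6 and 76.3 in WT PRO and no peak, no peak and 9.62 in WT DIFF. In p27KO they were 91.4 and 87.0 at PRO and no peak and 31.1 at DIFF. PRO and DIFF libraries were far apart, and the change was -1.92 ± 0.24 in WT (adjusted p = 0.000385) and -1.98 ± 0.30 in p27KO (adjusted p = 0.00183). A further region at 111 kb changed by -1.46 ± 0.23 and -2.19 ± 0.29, and the region at 129 kb between them rose. At the internal start with a peak in every library, 58.6 kb from the annotated start, the change was -0.18 ± 0.20 in WT and -0.25 ± 0.25 in p27KO, neither of which passed. Kcnk10, which encodes a related leak channel, changed at 33 kb by -1.40 ± 0.27 in WT (adjusted p = 0.00427) and by -1.01 ± 0.33 in p27KO (adjusted p = 0.0714).

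Kcnip1 encodes a calcium-binding auxiliary subunit of the A-type channels and held the most calls of any Kcn gene, with 8 falls and 2 rises among 25 tested regions in WT and 4 falls and 1 rise in p27KO. The region at 126 kb (chr11:33866470-33867263) had percentiles of 96.1, 95.6 and 96.1 in WT PRO, 42.2, 27.1 and 58.4 in WT DIFF, 98.2 and 96.3 in p27KO PRO and 58.3 and 43.1 in p27KO DIFF. It kept a peak in every library while its rank fell at DIFF, with a change of -1.77 ± 0.18 in WT (adjusted p = 0.000143) and -1.82 ± 0.23 in p27KO (adjusted p = 0.000768). The regions at 61.1, 132, 193 and 244 kb had peaks in all 5 PRO and no DIFF libraries. Rises at 65.6 kb (0.84 ± 0.19 in WT) and 206 kb (0.99 ± 0.22) lay between them. At the internal start 149 kb from the annotated one, all 10 libraries had a peak and the WT change was 0.04 ± 0.21 (adjusted p = 0.911). These 4 passed the filter through PRO and had to fall. Of the 10 WT calls, those at 65.6, 126 and 206 kb were kept in all 10 fits without 1 library. The call at 193 kb was kept in the 5 fits that tested it, and the other 6 were lost in 1 to 9 fits, with adjusted p up to 0.171.

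The genes of the large-conductance calcium- and voltage-activated (BK) channel, Kcnma1 for the pore and the Kcnmb genes for its auxiliary subunits, had falls alone. Of their 23 tested regions, 7 fell (30.4%) and 0 rose in WT, where 10.1% of all tested regions fell and 9.15% rose. In p27KO 5 fell (21.7%) and 0 rose, where 6.48% of all tested regions fell and 5.83% rose. Of these falls, 3 in each genotype, at 103, 129 and 228 kb in Kcnma1, passed the filter through the 5 PRO libraries alone and had to fall, which leaves 4 falls in WT and 2 in p27KO. Of all tested regions with peaks in both conditions, 8.12% fell in WT and 5.11% in p27KO. The Kcnm genes were not singled out in advance, and the difference from other subfamilies was not tested. Kcnma1 had 23 regions over 725 kb, of which 16 were tested, and 5 of these fell in WT and 4 in p27KO. The region at 103 kb (chr14:23911106-23911503) had percentiles of 70.1, 52.5 and 56.3 in WT PRO and 66.9 and 68.8 in p27KO PRO and no peak in any DIFF library. The regions at 129 and 228 kb showed the same presence pattern. Their WT changes were -1.47 ± 0.22, -1.41 ± 0.23 and -1.38 ± 0.21 on the normal score scale.

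In p27KO the Kcnma1 changes at 103, 129 and 228 kb were -1.61 ± 0.27, -1.20 ± 0.28 and -0.89 ± 0.26, and all passed, although the call at 129 kb was lost without p27KO DIFF 1 or p27KO DIFF 2 (adjusted p up to 0.123) and that at 228 kb without WT DIFF 1, WT DIFF 2, p27KO DIFF 1 or p27KO DIFF 2 (adjusted p up to 0.237). The WT call at 613 kb was lost without WT PRO 1, WT PRO 2, WT PRO 3, WT DIFF 2 or WT DIFF 3 (adjusted p up to 0.0813), and that at 636 kb without WT PRO 2, WT PRO 3, WT DIFF 1 or WT DIFF 2 (adjusted p up to 0.104). At the internal start of Kcnma1, 9.8 kb from the annotated start, the percentiles were 61.5, 72.4 and 62.2 in WT PRO, 40.1, 50.6 and 65.9 in WT DIFF, 61.1 and 63.6 in p27KO PRO and 48.4 and 53.5 in p27KO DIFF. The WT groups overlapped, and the change of -0.17 ± 0.18 did not pass (adjusted p = 0.562). Kcnmb2 changed at 165 kb by -1.14 ± 0.18 in WT (adjusted p = 0.00124) and -1.07 ± 0.22 in p27KO (adjusted p = 0.00891), the latter lost without p27KO PRO 1 or p27KO DIFF 2 (adjusted p up to 0.0824). The region at the start of Kcnmb1 is shared with an intron of Kcnip1 and counts for both genes, with a WT change of -0.67 ± 0.20 (adjusted p = 0.0341), a call lost in 7 of 10 fits without 1 library (adjusted p up to 0.120).

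**Figure D3:**
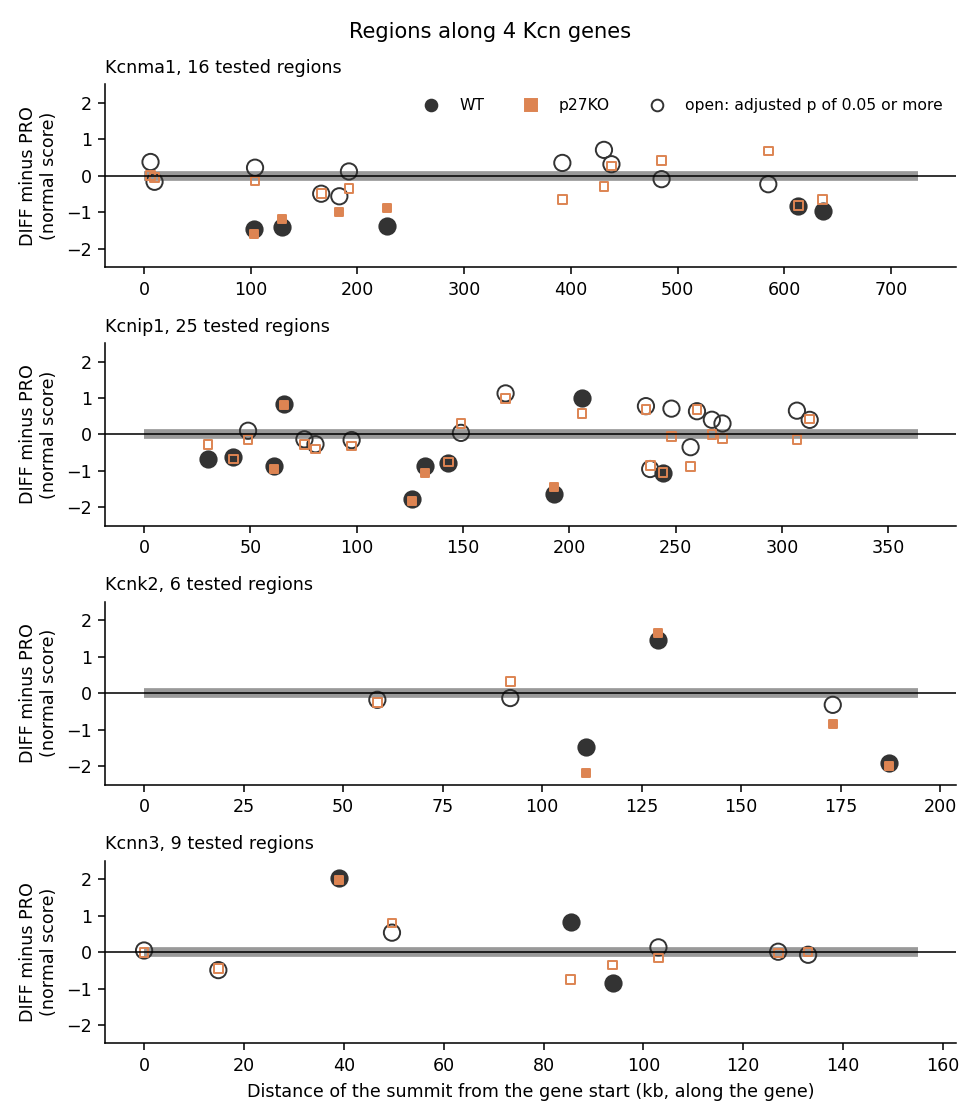
Change DIFF minus PRO (normal score) of each tested region against its distance from the gene start (kb) in Kcnma1, Kcnip1, Kcnk2 and Kcnn3, with circles for WT, squares for p27KO and filled symbols for adjusted p under 0.05. The grey bar is the gene. Kcnma1 has filled symbols below 0 alone, while the other 3 genes have filled symbols on both sides of 0.

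Further large falls were at genes of the voltage-gated channels. Kcnh8, of the ether-a-go-go group, changed at 125 kb by -1.41 ± 0.17 in WT and -2.03 ± 0.21 in p27KO (adjusted p = 0.00034 and 0.000439), with 1 DIFF library of 5 holding a peak (20.5, the third WT library). Kcnab1, an auxiliary subunit of the Kcna channels, changed at 254 kb by -1.33 ± 0.29 and -2.37 ± 0.36. Neither region lost its call in WT or p27KO in a fit without 1 library that tested it.

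Kcnq1, best known for cardiac and epithelial currents, fell at 68.5 kb. The percentiles were 89.8, 93.7 and 89.8 in WT PRO and 16.6, 21.8 and 81.4 in WT DIFF, 88.5 and 87.8 in p27KO PRO and 39.4 and 49.5 in p27KO DIFF. The third WT DIFF library lay close to the PRO libraries, and the change was -1.31 ± 0.28 in WT (adjusted p = 0.00711) and -1.15 ± 0.34 in p27KO (adjusted p = 0.0472, lost in 8 of 10 fits without 1 library, up to 0.195). The imprinted antisense transcript Kcnq1ot1 starts within Kcnq1, and the region at its start had percentiles of 85.1 to 95.7 in the 10 libraries and a WT change of 0.37 ± 0.19 (adjusted p = 0.213). Kcnj14, an inward rectifier of motor neurons, was the only gene with a fall upstream of its start, at -1.84 kb, where all 5 PRO libraries and no DIFF library had a peak. That change was -1.05 ± 0.22 in WT (adjusted p = 0.00721) and -1.25 ± 0.27 in p27KO (adjusted p = 0.0124), the p27KO call being lost without p27KO DIFF 1 or p27KO DIFF 2 (adjusted p up to 0.101). In Kcnd3 the region at 94.3 kb changed by -1.17 ± 0.24 in WT (adjusted p = 0.00584) and -0.68 ± 0.29 in p27KO (adjusted p = 0.168). Like the Kcnj14 region it had peaks in the 5 PRO libraries alone, so both passed the filter through PRO and had to be lower at DIFF.

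The largest p27KO changes added 5 regions to those above. Kcnk12, a leak channel subunit, rose at 27 kb by 1.18 ± 0.30 in p27KO, beside a WT change of 0.83 ± 0.25 (adjusted p = 0.0267 and 0.0374). Falls in p27KO were seen at 107 kb in Kcnd3 (-1.60 ± 0.23, WT -0.97 ± 0.19), at 377 kb in Kcnh7, an ether-a-go-go related channel (-1.37 ± 0.23, WT -0.91 ± 0.18), at 81.5 kb in Kcnj3 (-1.35 ± 0.30, WT -0.81 ± 0.24) and at 111 kb in Kcnk2. Their adjusted p in p27KO were 0.00149, 0.00303, 0.0134 and 0.000966, and in WT 0.00431, 0.00563, 0.0394 and 0.00142. The Kcnj3 region had peaks in the 5 PRO libraries alone, so it passed the filter through PRO and had to be lower at DIFF. The WT call of Kcnk12 was lost in 4 of the 5 fits that tested it (adjusted p up to 0.179), and that of Kcnj3 in all 5 (up to 0.190), with the replicate block (0.0558) and in a fit of the WT libraries alone (0.0697). The p27KO call of Kcnk12 was lost without WT PRO 2, WT PRO 3, p27KO PRO 1 or p27KO PRO 2 (adjusted p up to 0.194) and that of Kcnj3 without p27KO DIFF 1 or p27KO DIFF 2 (adjusted p up to 0.107).

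By subfamily letter, the counts were small, and differences between letters were not tested. Over all tested regions 10.1% fell and 9.15% rose in WT, and 6.48% fell and 5.83% rose in p27KO. Deeper in gene bodies, 23.2% of all such regions of protein-coding genes were called in WT. The Kcnn genes had 5 rises and 1 fall among 23 tested regions in WT (26.1% called) and 3 rises in p27KO. The Kcnh genes had 5 rises and 2 falls among 38 in WT (18.4% called) and 3 falls in p27KO. For the others, WT falls and rises were 2 and 3 of 26 for Kcna, 1 and 0 of 13 for Kcnb, 0 and 1 of 14 for Kcnc, 5 and 3 of 36 for Kcnd, 4 and 3 of 40 for Kcnj, 5 and 4 of 34 for Kcnk, 4 and 2 of 35 for Kcnq, and 0 and 1 of 8 for Kcnt. None of the 3 Kcne regions was called. Genes with other letters, which comprise the silent subunits and the Kcnip proteins, had 9 falls and 5 rises among 63 regions in WT. In p27KO, falls and rises were 1 and 0 for Kcna and for Kcnb, 0 and 1 for Kcnc, and 3 and 1 for Kcnd. They were 3 and 4 for Kcnj, 4 and 3 for Kcnk, 2 and 2 for Kcnq, and 0 and 0 for Kcnt. Genes with other letters had 4 falls and 2 rises in p27KO. The genes with the most regions were Kcnip4 (30), Kcnd3 and Kcnip1 (28 each) and Kcnma1 (23).

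**Figure D4:**
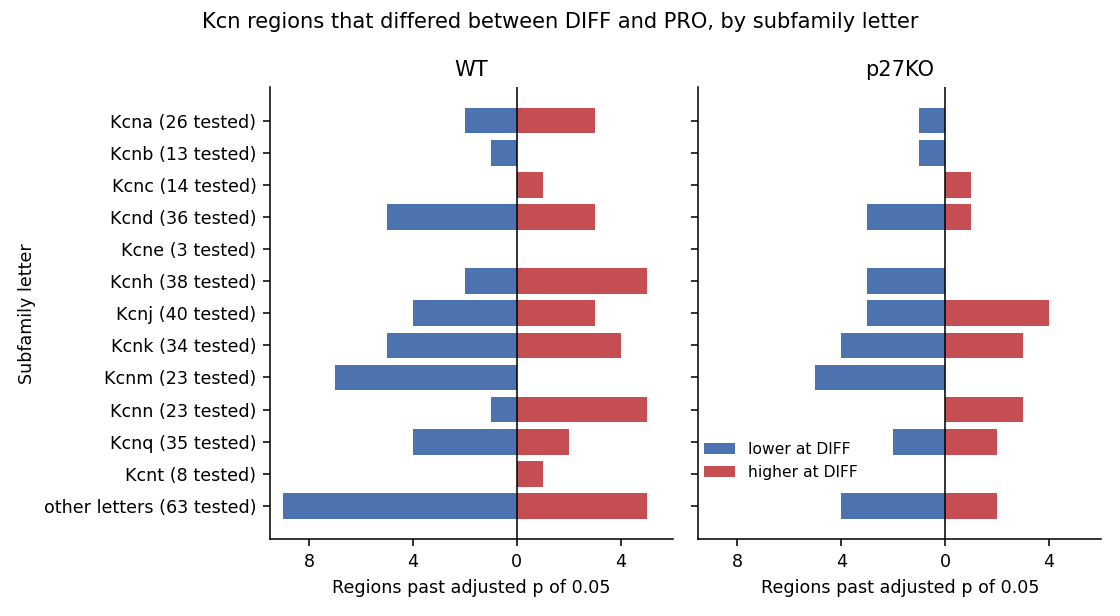
Number of Kcn regions past an adjusted p of 0.05 for DIFF minus PRO, by the letter after Kcn, with falls to the left and rises to the right of 0, in WT and p27KO. Kcnm and Kcnb bars point left alone in both panels, and 5 groups (Kcnd, Kcnj, Kcnk, Kcnq and the other letters) have bars on both sides in both panels.

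As at protein-coding starts in general, start regions of well-known channel genes seldom passed the test. The region nearest the start was examined in 19 genes. Of these, 12 had a peak there in all 10 libraries within 3 kb of the start, and none of these 12 passed the test in WT or p27KO. Of all tested regions within 3 kb of a protein-coding start, 5.79% were called in WT and 2.80% in p27KO. The absence of a call among 12 regions is therefore near that share. Kcnj10, the main glial inward rectifier, had percentiles of 72.7, 71.5 and 75.1 in WT PRO, 71.5, 80.9 and 76.5 in WT DIFF, 81.5 and 84.0 in p27KO PRO and 80.8 and 77.6 in p27KO DIFF. PRO and DIFF overlapped in WT and did not in p27KO, and the WT change of 0.21 ± 0.18 did not pass (adjusted p = 0.464).

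Kcnn2 and Kcnk1 had the largest changes among these starts. The Kcnn2 start had percentiles of 92.2, 91.7 and 97.1 in WT PRO against 74.9, 78.5 and 87.5 in WT DIFF, and 93.5 and 91.3 against 84.5 and 77.0 in p27KO, a WT change of -0.61 ± 0.20 (adjusted p = 0.0554). Kcnk1, a weakly rectifying leak channel, had 67.4, 64.5 and 51.4 in WT PRO and 35.8, 25.2 and 38.1 in WT DIFF, with a change of -0.50 ± 0.22 (adjusted p = 0.137). In both genes the PRO and DIFF groups of WT did not overlap, but the differences missed the threshold. The Kcnn2 start passed with lists of equal length (-0.65, adjusted p = 0.0416) and when regions in all 10 libraries alone were tested (-0.75, adjusted p = 0.0471). With summits required within 250 bp, Kcnk1 passed (-1.46, adjusted p = 0.00136), as did the Kcna2 start (2.20, adjusted p = 9.4e-05). Under that setting a peak whose summit lay farther from the region's summit counted as no peak. These 2 values thus also depend on where summits fell within the region. Without this requirement, the Kcna2 start had a peak in all 10 libraries. Its WT change was then 0.16 to 0.28 in the fits without 1 library.

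The other 9 starts, of Kcna1, Kcna2, Kcnc1, Kcnd2, Kcne1l (Kcne5), Kcnh2, Kcnip3, Kcnn3 and Kcnq3, had WT changes of -0.09 to 0.49 and adjusted p of 0.153 to 0.901. The Kcne1l region, in a single-pass accessory subunit gene on the X chromosome, was the highest ranked, at percentiles of 89.9 to 99.1. Kcnj5 and Kcnj16 have been described above. At Kcnk2, Kcnk10, Kcnq1 and Kcnt1 the nearest region had a peak in 2 to 4 libraries and was not tested. Another Kcnt1 region within 3 kb of the start had a peak in all 10 libraries, with an uncalled WT change of -0.12. Kcnk2 and Kcnk10 had a peak near the start of some annotated transcript in all 10 libraries. At Kcnma1 the nearest region lay 6.05 kb inside the gene with a WT change of 0.38 ± 0.33 (adjusted p = 0.481). Inside Kcna2, a region at 12.8 kb rose by 0.92 ± 0.17 in WT (adjusted p = 0.00354), with percentiles of 74.0, 71.3 and 65.3 in PRO and 89.4, 91.5 and 92.0 in DIFF, and changed by 0.57 ± 0.21 in p27KO (adjusted p = 0.109). It was named after its values were seen.

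**Figure D5:**
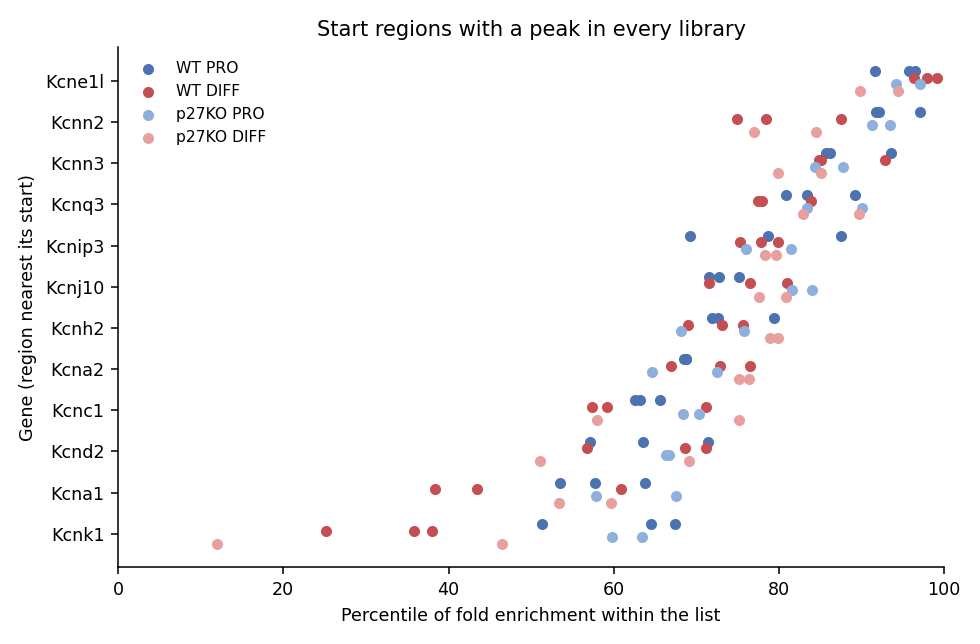
Percentile of fold enrichment within the list for the start region of 12 Kcn genes with a peak in every library, with 1 point per library and colours for the 4 groups. PRO and DIFF points overlap at most genes and lie apart in WT at Kcnn2 (91.7 to 97.1 against 74.9 to 87.5) and Kcnk1 (51.4 to 67.4 against 25.2 to 38.1).

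By presence alone, more Kcn regions closed than opened. In WT, 22 of the 518 Kcn regions (4.25%) closed, with a peak in every PRO and no DIFF library, and 7 (1.35%) opened, against 4.32% and 1.86% of all regions. In p27KO, where 2 libraries per condition make the rule easier to meet, 53 (10.2%) closed and 17 (3.28%) opened, against 10.9% and 3.32%. Both genotypes shared 16 closed and 3 opened Kcn regions. These were the 19 of 518 with peaks in all 5 libraries of 1 condition alone, beside 3538 of all 99231 regions. These counts and their balance depend on list length. With lists cut to the same length, 366 Kcn regions remained. Of these, 16 closed and 19 opened in WT, and 17 closed and 16 opened in p27KO. Without the third WT DIFF library, 39 of 485 Kcn regions closed in WT. The shares of all regions under these settings are not given here.

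No Kcn region was called as different between genotypes. For the difference between genotypes in the change at DIFF, limma called 0 of 355 Kcn regions and 0% of all regions, with 12 Kcn regions under an unadjusted p of 0.05 (3.38%, against 3.91% of all). For p27KO against WT, 0 Kcn regions were called at PRO (0.034% of all regions) and 0 at DIFF (0.0156%), with 18 and 12 at an unadjusted p under 0.05 (5.07% and 3.38%, against 5.53% and 4.91% of all). With replicate numbers as a block, and with crossed numbers, limma called 1 Kcn region at PRO and 1 at DIFF, and with summits required within 250 bp it called 1 at PRO. With 2 p27KO libraries per condition, a miss does not show that the genotypes act alike. For the Kcnq5 region at 527 kb the difference between genotypes in the change was -0.98 ± 0.30 (unadjusted p = 0.00769, adjusted p = 1.00), and for the Kcnd2 region at 295 kb it was -1.20 ± 0.41 (unadjusted p = 0.0137, adjusted p = 1.00).

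Genes that work beside the Kcn channels had calls in both directions. For 24 genes of potassium handling and channel partners (Dpp6 and Dpp10, the Hcn channels, sodium pump subunits and cation-chloride cotransporters among them), 15 of 87 tested regions fell (17.2%) and 7 rose (8.05%) in WT, and 6 fell (6.90%) and 9 rose (10.3%) in p27KO. For 18 pore genes of voltage-gated sodium and calcium channels, 12 of 116 fell (10.3%) and 18 rose (15.5%) in WT, and 12 fell (10.3%) and 14 rose (12.1%) in p27KO. Over all regions 10.1% fell and 9.15% rose in WT, and 6.48% fell and 5.83% rose in p27KO. The differences between lists were not tested.

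The motifs in the 300-base windows of changed Kcn regions resembled those of all changed regions. AP-1 matches occurred in 12 of the 39 Kcn windows that fell in WT (30.8%) and in 3 of the 32 that rose (9.38%), against 28.2% and 6.95% of all regions that fell or rose and 11.5% of all regions. E-box matches occurred in 46.2% and 15.6% of the Kcn windows, against 40.9% and 21.1%, and 26.0% of all regions. NFI matches occurred in 40.6% of the Kcn windows that rose and 35.9% of those that fell, against 38.9% and 25.1%, and 23.7% of all regions. TEAD matches occurred in 28.1% of those that rose and 12.8% of those that fell, against 29.3% and 21.1%, and 19.5% of all regions. SOX matches occurred in 0 of 32 that rose and 3 of 39 that fell (7.69%), against 5.36% and 6.72%, and 5.12% of all regions.

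The left part of the REST element, a sequence bound by a repressor of neuronal genes, occurred in 7 of the 104 Kcn windows within 3 kb of a start (6.73%), against 0.913% of all such windows of protein-coding genes, and the right part in 4 (3.85%, against 2.66%). These windows included those of Kcnh3, Kcnh6, Kcnj5, Kcnj6, Kcnk3 and Kcns2. Of the regions with the left part, Kcnj5 rose in both genotypes and Kcns2, a silent subunit gene named after its values were seen, rose in p27KO alone by the test (0.85 ± 0.24, adjusted p = 0.0380, WT 0.26 ± 0.19, adjusted p = 0.397), and the difference between genotypes was not called. The Kcns2 call was lost without WT PRO 2, WT DIFF 1, WT DIFF 2, p27KO PRO 1, p27KO PRO 2, p27KO DIFF 1 or p27KO DIFF 2 (adjusted p up to 0.219). A match is a description of letters and not evidence of binding.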

How the data were processed

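ATAC-seq was measured in 10 libraries, grouped by title and genotype. Per the study's methods, the authors trimmed paired-end reads with Cutadapt and Trimmomatic, mapped them with Bowtie2 to GRCm38, flagged duplicates (Picard) and ran MACS2 for narrow peaks on each library at an FDR of 0.05. Read shift and tool versions are not given in the sources used here. Each list gives, as deposited by the authors, a ratio (fold enrichment of the summit over local background), −log10 p and −log10 q values from MACS2, and a display score derived from them. Reads per library are not in these lists, so depth is known only through list length.

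Peaks overlapping by 1 bp were merged (137454 regions), and genes came from GENCODE M21. Fold enrichment was ranked per library, converted to normal scores and fitted with limma (version 3.58.1, under R version 4.3.3) as 4 group means without covariates; Python 3.11.15 did the rest. The scripts were tested on simulated data. The study's own test needs aligned reads and was not used here. Alternatives covered the ranking, filters, peak sets, summit distance, gene starts, blocks and leaving out each library. Named regions were the 12 largest rises and falls per genotype (1 per gene and direction), the region nearest the start of each gene in a fixed list, and the gene with most regions per subfamily; those outside this rule were chosen after their values were seen. Results of a few regions that this rule names are not reported here. The members and lists were chosen with earlier results of these data known.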

Additional observations from a re-analysis of the deposited data

Results flagged for a closer look

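In 2 Kcn regions the normal scores of PRO and DIFF libraries did not overlap in either genotype and moved in opposite directions in WT and p27KO. The share of all tested regions with this pattern is not given here, so the count of 2 cannot be set against it. The intronic Kcnn3 region 85.4 kb from the start rose in WT by 0.84 (limma, adjusted p = 0.0100), a call lost without the third WT PRO library (adjusted p = 0.0689). Its change in p27KO was -0.76 (adjusted p = 0.0561), where both PRO libraries and neither DIFF library had a peak. The difference between the changes, p27KO minus WT, was -1.595 (SE 0.30, unadjusted p = 0.000228, adjusted p = 1.00). The exonic Kcnq3 region 299 kb from the start fell in WT (change -0.79, adjusted p = 0.0209), a call lost without the third WT PRO, the first WT DIFF or the third WT DIFF library (adjusted p up to 0.0740). Its change in p27KO was 0.20 (adjusted p = 0.678), and the difference was 0.9963 (SE 0.33, unadjusted p = 0.0112, adjusted p = 1.00). Neither difference passed the adjustment over all 70627 tested regions.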

How the results depend on the processing

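The 71 WT and 42 p27KO calls became 28 and 14 when regions in all 10 libraries alone were tested (fewer regions tested). With lists of equal length, 19 of 366 Kcn regions opened in WT and 17 closed in p27KO. Between genotypes, 1 region was called at PRO with summits within 250 bp, and 1 at PRO and 1 at DIFF with a replicate block, and likewise 1 and 1 with a crossed replicate block, which was added after seeing the data. Libraries shared only a number: same-numbered pairs correlated at -0.141 to 0.065 and others at -0.084 to 0.141. Among the WT libraries of the other condition, 6 of 6 WT libraries correlated best with their own number. With p27KO libraries included this did not hold: WT DIFF 3 correlated at 0.033 with WT PRO 3 and 0.084 with p27KO DIFF 2. The block gave 69 WT and 38 p27KO calls. Leaving out 1 library gave 39 to 61 WT calls (lowest without the second or the third WT PRO library) and 16 to 38 p27KO calls (lowest without the second p27KO PRO library). Closed and opened regions ranged from 22 to 39 and 7 to 16 in WT, and from 53 to 83 and 17 to 34 in p27KO, and a group left with 1 library was assumed to vary like the others. Uncalled start regions changed sign: Kcnip3 was -0.066 when ranked by −log10 p, and without 1 library the ranges were -9.332e-05 to 0.1264 for Kcnh2, -0.1289 to 0.2274 for Kcnip3, -0.03697 to 0.1891 for Kcnn3 and -0.187 to 0.01391 for Kcnq3. Uncalled starts that passed in WT were Kcna2 (2.20) and Kcnk1 (-1.46) with summits within 250 bp, where peaks with a more distant summit counted as absent. Kcnn2 passed with equal lists (-0.65) or regions in all 10 libraries (-0.75). The causes were not tested. Across named regions and alternatives, 1095 values kept direction and side of the threshold, 59 lost their call, 7 gained one and 7 changed sign. List length and 2 p27KO libraries per condition limit what could be called.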
